A study of Homo sapiens with 18 samples.

Results

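In PC9 cells of low aldehyde dehydrogenase (ALDH) activity, 12 h of erlotinib was followed by more gained than lost regions of called open chromatin. The regions came from ATAC-seq, a method in which a transposase cuts and tags accessible DNA, of 3 libraries of ALDH-low cells given 1 µM erlotinib and 3 libraries of ALDH-low cells given the vehicle DMSO. PC9, an established line of human lung adenocarcinoma, carries mutant EGFR and depends on it, and every group was made from it. Cells received drug or vehicle for 12 h and were then separated by Aldefluor, whose fluorescence reports ALDH activity, so the sort followed the treatment and the ALDH-low fraction may hold different cells in the 2 groups, which was not tested. The other 12 libraries of the series, which the rule below did not use, were 3 each of ALDH-high cells after 12 h of DMSO, ALDH-high cells after 12 h of 1 µM erlotinib, unsorted PC9 cells given DMSO, and drug-tolerant persisters (DTP), the cells left after 8 days of 1 µM erlotinib.

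Peaks of the 6 ALDH-low lists on chromosomes 1 to 22 and X were merged wherever they shared at least 1 bp, which gave 53124 regions, compared with 79483 regions over all 18 libraries. A region counts as held by a library with 1 or more peaks inside it. Gained regions are those that all 3 erlotinib libraries held and no DMSO library did, and lost regions those that all 3 DMSO libraries held and no erlotinib library did. By this rule 3620 regions (6.81% of the 53124) were gained and 474 (0.892%) were lost, 4094 in all. The rule was applied again after each list was cut to its 26225 peaks with the highest scores, the length of the shortest list (equal lists). There, 1430 of 42168 regions (3.39%) were gained and 1169 (2.77%) were lost.

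EGFR is a receptor tyrosine kinase that signals through the MAPK and PI3K cascades to transcription factors such as AP-1 and the ETS family, which bind enhancers and promoters and help to keep them accessible. Erlotinib blocks the kinase, and in EGFR-mutant cells the output genes of the pathway, among them its own feedback inhibitors of the Sprouty and DUSP families, lie downstream of that block. ALDH enzymes oxidise reactive aldehydes, and high activity on Aldefluor is widely used to enrich stem-like or stress-tolerant subpopulations, so ALDH-low cells are the complement of that fraction. A called ATAC-seq peak marks an accessible promoter, enhancer or insulator, and absence from a list means only that no peak was called, whether for lack of reads or of open DNA.

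Each peak carried a score that the authors' caller assigned on an unstated scale, and the lowest score was about 70 in every list. Scores and percentiles are therefore read only within a list, a percentile being the position of a peak among all peaks of that list, with 100 for the strongest. The erlotinib libraries a, b and c held 40670, 36458 and 32583 peaks, and the DMSO libraries 26438, 26225 and 26367. The groups did not overlap, and the erlotinib libraries differed among themselves far more than the DMSO libraries did. The difference of 10227 peaks (1.39 times as many) had an exact two-sided permutation p of 0.1, the smallest that 3 against 3 libraries allow. Read depth is unknown, the letters are not said to mark separate cultures, and p-values here measure only how libraries vary, which may be technical variation. In bulk profiles, a region open in fewer cells and a region less open in each cell cannot be told apart. No gene coordinates of the files' genome build (hg19) were used, so regions were not tied to genes and the sort was not checked against ALDH marker genes.

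The 16007 regions held by all 6 libraries were the largest class, and from there the counts leaned to the erlotinib side. Of the regions held by all 3 erlotinib libraries, 3848 were held by 2 DMSO libraries, 2989 by 1 and 3620 by none. Of those held by all 3 DMSO libraries, 1038 were held by 2 erlotinib libraries, 553 by 1 and 474 by none. Gained regions made up 88.4% of the 4094 separated ones, and 84.6 to 91.5% when 1 library was left out at a time. In equal lists the lean was small: 1430 gained regions were 55.0% of the 2599 separated there, and 14588 regions were held by all 6 libraries. Longer lists hold more peaks by construction, and how much of the difference in length is depth was not tested.

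**Figure D1:**
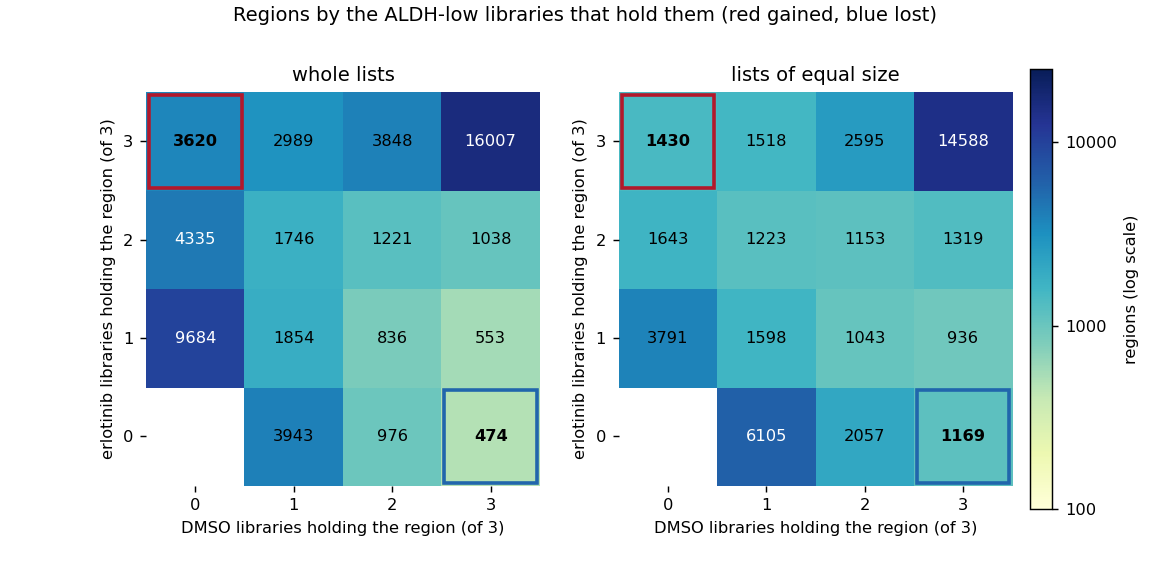
Number of regions by how many of the 3 erlotinib libraries (vertical axis) and 3 DMSO libraries (horizontal axis) of ALDH-low cells held them, in whole lists and in lists of equal size, with colour on a log scale. The red frames mark gained regions (3620 and 1430) and the blue frames lost regions (474 and 1169), which are far apart in the whole lists and close in the equal ones.

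The equal lists leave the DMSO lists almost whole and shorten the erlotinib lists, so a lost region could hardly leave its class there, and 468 of the 474 were lost in both settings by construction. Of the 3620 gained regions, 1410 were also gained there, 1851 showed another pattern and 359 fell below the shorter lists altogether. The 1169 regions lost in the equal lists were often still called in the whole erlotinib lists: 386 were held by 1, 234 by 2 and 81 by all 3 of the whole erlotinib lists.

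The strongest gained region lay at 6q23.3 (chr6:135591388-135593194, 1807 bp). Its scores were 1212, 1131 and 1004 in erlotinib libraries a, b and c, at or above percentile 99.6 of each list, while no DMSO library called it. It was not confined to drug-treated cells, since all 3 PC9, all 3 DTP, 2 ALDH-high DMSO and all 3 ALDH-high erlotinib libraries held it. The next, at 10p12.1 (chr10:26692322-26693181, 860 bp), scored 1102, 1566 and 765 and was held elsewhere by the 3 ALDH-high erlotinib libraries alone, by no PC9, DTP or ALDH-high DMSO library. It thus appeared in all 6 libraries of 12 h erlotinib and in none of the other 12. The regions at 15q26.1 (chr15:90310097-90311613, scores 566, 395 and 551) and 2p24.1 (chr2:20504736-20505875, scores 418, 782 and 556) had the same pattern over the 18 libraries.

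Another kind of leading gained region was held by all 9 erlotinib libraries of the series, persisters included, and by none of the 9 DMSO libraries. At 3q29, chr3:194232900-194234505 scored 886, 675 and 738 in the ALDH-low erlotinib libraries, and chr3:193570819-193572416 scored 667, 621 and 513. The regions at 1p21.2 (chr1:101723022-101724264, scores 523, 526 and 432), 11q23.1 (chr11:111173822-111175029, scores 517, 467 and 419) and 3q11.2 (chr3:97776316-97777941, scores 439, 473 and 524) shared this pattern. These regions stood at percentile 85.5 to 96.5 of the list in their weakest library, far from the floor. A different kind was open nearly everywhere: 3q26.1 (chr3:161033434-161034893, scores 630, 624 and 390) was held by all 12 libraries outside the comparison and lacking only from the 3 ALDH-low DMSO libraries.

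Over the 20 leading gained regions, chosen by the percentile in the weakest erlotinib library (83.9 to 99.6), all 20 were held by all 3 ALDH-high erlotinib libraries. In the vehicle groups, 10 were held by no ALDH-high DMSO library and 8 by no PC9 library, while 14 were held by all 3 DTP libraries. Of all 53124 regions, 68.1% were held by at least 1 ALDH-high DMSO library and 74.3% by at least 1 PC9 library. All 3 DTP libraries held 55.1% of all regions. The share of all regions held by all 3 ALDH-high erlotinib libraries was not computed. How far the choice of these 20 by high percentile raises their holding elsewhere was not tested. Widths of the 20 ran from 860 to 2272 bp. The widest gained region of all, at 8q24.3 (4744 bp), was weak, with scores of 105, 85.7 and 86.4.

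Each of the 20 leading lost regions was called in all 9 vehicle libraries of the series. At 10q25.2 (chr10:112295410-112296792, 1383 bp), DMSO libraries a, b and c scored 268, 266 and 288, with no call under erlotinib. The region at 5q23.3 (chr5:127563203-127564474) scored 249, 304 and 339, and the region at 7q36.1 (chr7:148930144-148931783) scored 324, 296 and 242. Neither of the last pair was called in any ALDH-high erlotinib library, whereas 10q25.2 was called in 2. The regions at 9q31.1 (chr9:107832913-107834352, scores 292, 233 and 295) and Xq12 (chrX:64925649-64926865, scores 265, 339 and 236) were called in all 3 ALDH-high erlotinib libraries, so their loss was not seen in the other fraction.

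All 20 leading lost regions, with weakest-library percentiles of 59.3 to 82.9, were held by all 3 PC9 and all 3 ALDH-high DMSO libraries. Under 12 h of erlotinib in ALDH-high cells, 4 of them were held by no library, 2 by 1, 7 by 2 and 7 by all 3. In persisters 14 were held by all 3 libraries and the other 6 by 2 of 3. Of all 53124 regions, 54.5% were held by all 3 PC9 and 55.1% by all 3 DTP libraries. Regions held by all 6 ALDH-low libraries were held at means of 98.5% by PC9 and 97.3% by ALDH-high DMSO libraries. The 20 were chosen for high percentiles, and how far that alone raises their holding elsewhere was not tested. The highest-ranking lost region that was called in all 9 DMSO and no erlotinib library of the series was at 6p24.3 (chr6:7644371-7645466, scores 184, 159 and 159).

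**Figure D2:**
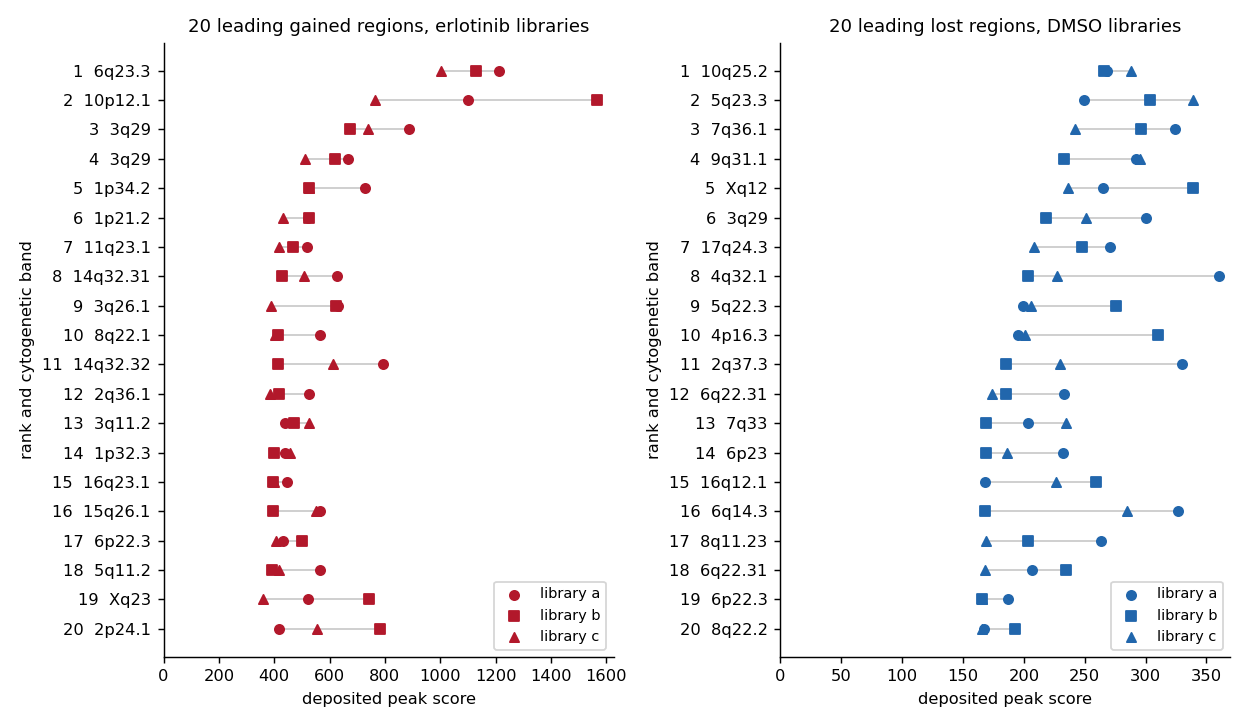
Deposited peak scores of the 20 leading gained regions in the 3 erlotinib libraries (left, red) and the 20 leading lost regions in the 3 DMSO libraries (right, blue), by cytogenetic band, with 1 symbol per library. Gained regions run from the 6q23.3 region, above 1000 in each library, to the 2p24.1 region at 418, 782 and 556, and the panels have different axes.

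Most members were modest peaks. Median scores of gained regions were 152, 129 and 114 in erlotinib libraries a, b and c, where regions held by all 6 libraries had 358, 307 and 271. Lost regions had medians of 113, 114 and 115 in the DMSO libraries, against 194, 192 and 196 for the common regions. In the weakest library that held it, the median gained region stood at percentile 20.9 and the median lost region at 20.1, compared with 49.3 for common regions. Only 428 gained (11.8%) and 37 lost regions (7.81%) stood at percentile 50 or above in each library that held them. Median widths were 1052 bp for gained, 990 bp for lost, 1547 bp for common regions and 691 bp for regions of a single library.

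At the edge of the rule stood gained regions at 16q22.1 (chr16:68291536-68292723), whose scores of 157, 265 and 70 include a call at the list's floor, and at 5q31.3 (chr5:140943435-140944323, scores 110, 70 and 90.5). The lost region at 3q25.32 (chr3:157878437-157879331) scored 125, 107 and 70. The 12q22 region (chr12:95012452-95013466, scores 74.7, 90.1 and 70.2) was the 1 lost region that none of the other 12 libraries held. Just outside the rule lay the 2989 regions that a single DMSO library held beside all 3 erlotinib libraries, and the 553 that a single erlotinib library held beside all 3 DMSO libraries.

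Peak numbers in the deposited lists run in order of position and have gaps. The gaps may mark peaks taken out after calling, though the sources used here do not say so. A number was missing at the position of 24 of the 3620 gained regions (0.663%) in at least 1 DMSO list, and at 6 of the 474 lost regions (1.27%) in at least 1 erlotinib list. No number was missing at any of the 20 leading gained or 20 leading lost regions. For 3475 gained and 437 lost regions, no peak of the opposite group lay within 1000 bp of the region. This held for 18 of the 20 leading gained and 17 of the 20 leading lost regions.

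Peaks covered more bases under erlotinib. Covered bases were 46.0, 41.4 and 37.2 Mb in the erlotinib libraries and 28.6, 29.2 and 29.3 Mb in the DMSO libraries, a difference of 12.5 Mb in whole lists and 4.25 Mb in equal lists (exact permutation p = 0.1 in each, n = 3 against 3). Gained regions contributed 3.40 Mb and lost regions -0.411 Mb. Regions held by all 6 libraries contributed 2.60 Mb, with a median of 1331, 1288 and 1254 covered bases per region under erlotinib and 1128, 1157 and 1151 under DMSO, and regions of other patterns contributed 6.91 Mb. With equal numbers of peaks, median peak width was 1167, 1127 and 1102 bp under erlotinib and 982, 1007 and 1008 bp under DMSO, and the groups did not overlap.

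Regions gained in ALDH-low cells were held mostly by the erlotinib libraries of ALDH-high cells too, which the rule did not use. The 3 ALDH-high erlotinib libraries held 78.3% ± 8.04 of the 3620 gained regions and the 3 ALDH-high DMSO libraries 24.8% ± 2.50 (mean ± SD, n = 3), a difference of 53.4 percentage points (exact two-sided permutation p = 0.1). Over all 53124 regions the shares were 66.1% and 54.4%. The lost regions went the other way, with 40.6% ± 5.28 held under erlotinib and 86.6% ± 2.96 under DMSO, a difference of -46.0 points (exact permutation p = 0.1). In equal lists, where all regions differed by 1.10 points (59.6% and 58.5%), the gained regions differed by 55.5 points (73.1% and 17.7%) and the lost regions by -53.0 points (26.7% and 79.8%). Whether the ALDH-high and ALDH-low libraries came from the same treated cultures is not stated.

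The 8-day persisters held both sets at similar shares. DTP libraries held 64.5% ± 2.16 of gained regions and PC9 libraries 37.3% ± 1.35, a difference of 27.2 points (exact permutation p = 0.1, n = 3 against 3). Of lost regions, DTP libraries held 67.4% ± 1.96 and PC9 libraries 95.3% ± 0.741, a difference of -27.8 points (exact permutation p = 0.1). Over all regions DTP and PC9 libraries held 65.8% and 64.5%. In equal lists the difference was 29.0 points for gained regions (42.5% and 13.5%) and -41.0 points for lost regions (43.6% and 84.6%), while all regions differed by -3.35 points (54.4% and 57.7%). PC9 and DTP cells were not sorted, so time, dose history and the sort differ together between these groups and the ALDH-low libraries.

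**Figure D3:**
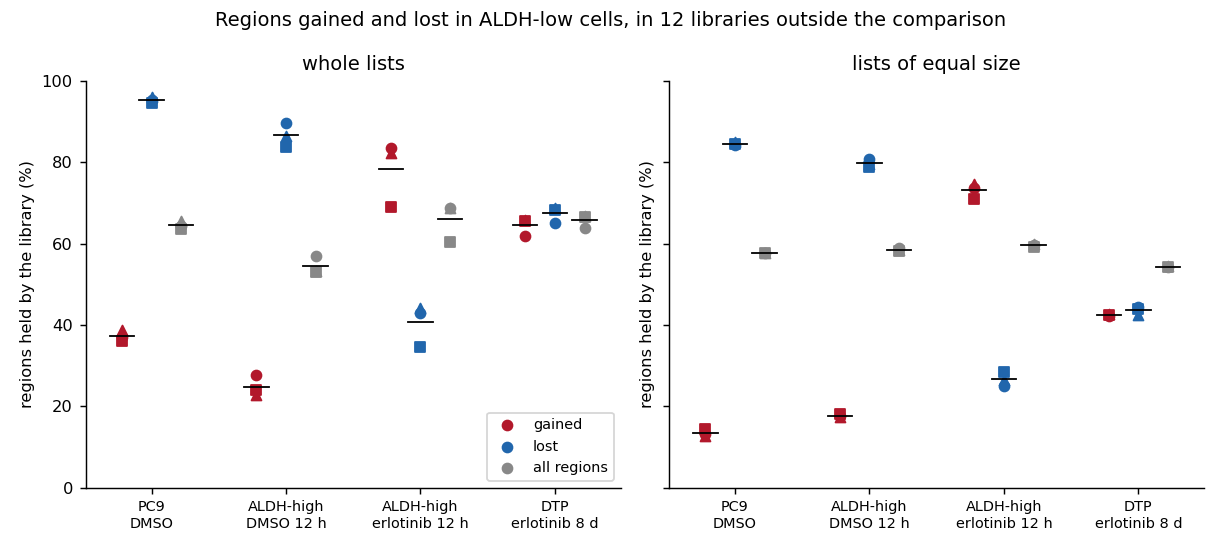
Share of the regions gained (red) or lost (blue) in ALDH-low cells, and of all regions (grey), that each of the 12 libraries outside the comparison held, in whole lists and in lists of equal size. Symbols are libraries a, b and c, and lines are group means. Gained regions lie below the grey level in the DMSO groups and above it in ALDH-high erlotinib cells, and lost regions do the reverse, while DTP libraries hold both sets at nearly the same share.

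Lost regions also stood higher in the vehicle lists where they were called. Where a PC9 library held a lost region, its median percentile was 65.7 to 68.9 over the 3 libraries, and in the DTP libraries 40.6 to 43.5. In ALDH-high DMSO libraries the medians were 46.3 to 47 and in ALDH-high erlotinib libraries 20.1 to 27.2. Gained regions had medians of 36.0 to 42.6 in ALDH-high erlotinib and 20.5 to 22.9 in ALDH-high DMSO libraries, and of 38.9 to 41.1 in DTP and 25.8 to 26.7 in PC9 libraries. These medians cover only the regions each library held, and lists differ in length.

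Counted region by region, 1006 gained regions (27.8%) were held by all 3 ALDH-high erlotinib and no ALDH-high DMSO library, against 4.57% of all 53124 regions, and 3 showed the reverse. Of the lost regions, 104 (21.9%) were held by all 3 ALDH-high DMSO and no ALDH-high erlotinib library, against 0.932% of all regions, and none showed the reverse. For 609 gained regions (16.8%) all 3 DTP and no PC9 library held the region, against 3.69% of all regions. For 71 lost regions (15%) all 3 PC9 and no DTP library did, against 2.93%. In equal lists the counts were 448 of 1430 gained (31.3%, all regions 2.75%) and 331 of 1169 lost (28.3%, all regions 2.20%) for the ALDH-high cells. For DTP and PC9 they were 253 gained (17.7%, all regions 2.69%) and 284 lost (24.3%, all regions 4.30%). All of these shares were several times those of all regions, which include the regions of single libraries.

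How many gained regions were called somewhere without the drug depended on list length. In whole lists at least 1 PC9 library held 1953 of them (54.0%, all regions 74.3%) and all 3 held 739 (20.4%, all regions 54.5%). No PC9 and no ALDH-high DMSO library held 1330 of them (36.7%, all regions 21.4%). By the rule, no ALDH-low DMSO library held a gained region either, a condition not set for the shares of all regions. In equal lists at least 1 PC9 library held 352 of the 1430 (24.6%, all regions 68.5%). No PC9 and no ALDH-high DMSO library held 826 (57.8%, all regions 21.5%). Of the 1330 in whole lists, 322 were held by all 9 erlotinib libraries, and 158 by all ALDH-high erlotinib libraries and no DTP library, as at 10p12.1. Most lost regions were called in unsorted vehicle cells. All 3 PC9 libraries held 430 of the 474 (90.7%, all regions 54.5%). All 3 DTP libraries held 246 (51.9%, all regions 55.1%), and 26 were called in all 9 DMSO and no erlotinib library. For the counts of 322, 158 and 26, shares of all regions were not computed. The rule itself fixes the ALDH-low calls in each of these patterns. Whether these counts exceed those of other regions was therefore not tested.

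The size of the erlotinib effect was not shown to differ between the fractions. With erlotinib the peak number was higher by 10227 in ALDH-low and by 7332 in ALDH-high libraries, a difference of 2895 (exact permutation of fraction within treatment, p = 0.485, adjusted p = 0.555 over 7 such tests). The smallest p of the 7 was 0.0950 (adjusted p = 0.362, exact permutation), for the share of peaks in Giemsa-dark bands in equal lists. With 3 libraries per group this does not show that the fractions respond alike.

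Lost regions were few on chromosomes 19 and 22, where gained regions were close to their share of common regions. Relative to their share of common regions, lost regions were 0.219 times as frequent on chromosome 22 (2 regions) and 0.268 times on chromosome 19 (5 regions), and 1.41 times on chromosome 5 (40 regions). Gained regions were 1.16, 0.848 and 0.917 times as frequent on these chromosomes, and 1.27 times on chromosome 15 (122 regions). In equal lists the lost regions stayed scarce on chromosome 19 (16 regions, 0.340 times) and chromosome 22 (12 regions, 0.522 times). Gained regions there were 0.591 times as frequent on chromosome 16 (29 regions) and 1.32 times on chromosome 13 (43 regions). Counts on small chromosomes are low, and no test over chromosomes was made.

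**Figure D4:**
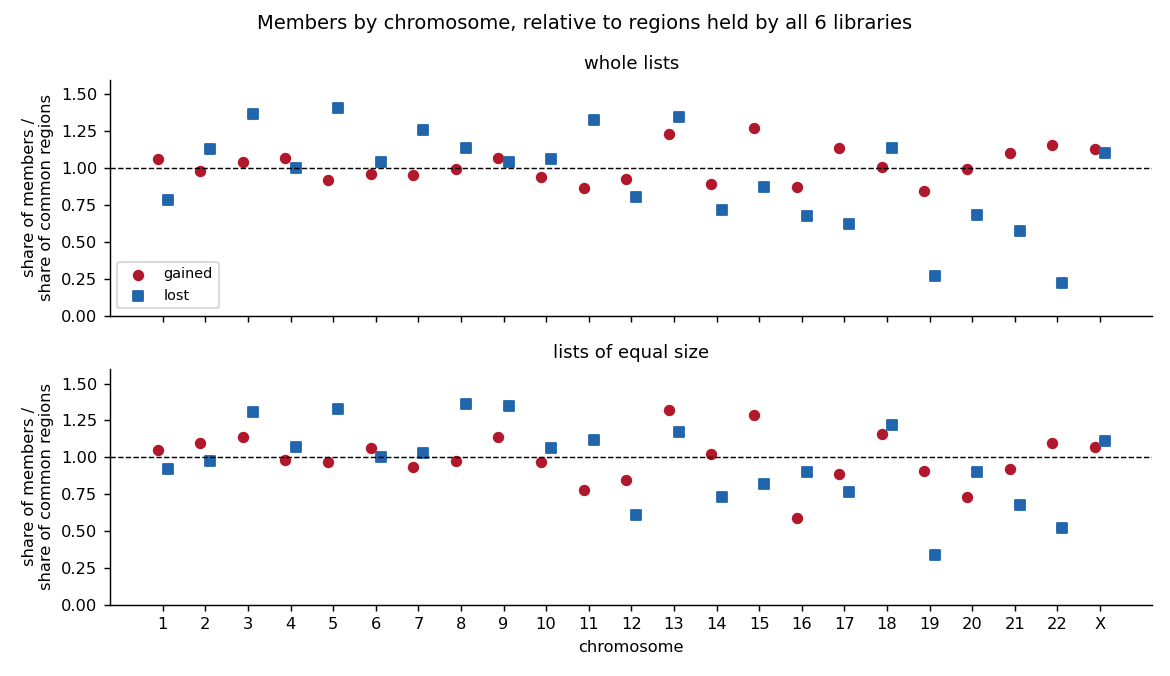
Share of gained (red circles) and lost (blue squares) regions on each chromosome divided by the share of regions held by all 6 libraries, in whole lists (top) and lists of equal size (bottom); the dashed line at 1 marks equal shares. Lost regions lie lowest on chromosomes 19 and 22 in both panels; gained regions lie nearer to 1 on those 2 chromosomes, but farther from 1 than lost regions on others, such as chromosome 16 in the lower panel.

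Over whole libraries some of these chromosomes separated the groups and others did not. In equal lists chromosome 19 held 4.03, 3.83 and 4.08% of the peaks under erlotinib and 3.53, 3.59 and 3.67% under DMSO. Chromosome 5 held 5.68, 5.66 and 5.64% under erlotinib and 5.98, 5.94 and 6% under DMSO. Chromosome 22 held 2.08, 2.04 and 2.15% under erlotinib and 1.81, 1.78 and 1.84% under DMSO. For chromosome 15 the shares were 2.95, 2.96 and 2.96%, and 2.88, 2.85 and 2.73%. Chromosome 16 (means 3.41 and 3.38%, exact permutation p = 0.6) and chromosome 13 (means 2.41 and 2.4%, exact permutation p = 0.8), which stood out among gained regions in equal lists, overlapped between the groups. The Giemsa-dark bands, which are AT-rich and gene-poor, held 16.8, 17 and 16.7% under erlotinib and 18.3, 18 and 17.9% under DMSO. For chromosomes 19, 5, 22 and 15 and the dark bands the groups did not overlap, each at an exact permutation p of 0.1 (n = 3 against 3). They were among 14 library-level tests, none of which could go lower with 3 libraries per group. The chromosomes are those named above for gained or lost regions of the same lists, so these tests are no separate support. By region, 23.2% of lost and 18.5% of gained regions lay in Giemsa-dark bands, beside 16.9% of common regions and 22.9% of regions of a single library. Protein-coding genes per Mb of the surrounding band had a median of 5.54 for lost, 6.88 for gained and 7.06 for common regions.

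Gained regions were spread widely and clustered in few places. Of 2783 windows of 1 Mb with any region, 1664 held a gained region, 126 held 5 or more, 409 held a lost region and 310 held both kinds. The window with most gained regions was at 3q29 (chr3:193000001-194000000), where 10 of 52 regions were gained, 1 was lost and 17 were common, among them the second of the 3q29 regions named above. The window at 13q31.1 (chr13:80000001-81000000) held 9 gained and 3 common regions out of 28. Windows at 6q23.2 (chr6:134000001-135000000) and 17q21.33 (chr17:48000001-49000000) also held 9 each. No window held more than 4 lost regions, the number at 11p15.1 (chr11:19000001-20000000), where 6 gained regions lay beside them.

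Runs of gained regions with neighbours less than 50 kb apart numbered 65 with 3 or more members, and these runs took in 215 of the 3620. The longest was 5 regions at 2q35 (chr2:216677400-216796650), with no common region between them. Another, of 4 regions, lay at 7q34 (chr7:142236776-142276190), in the band with the most gained regions (26 of 171, 15.2%), which also holds the kinase gene BRAF and the T-cell receptor beta genes. Lost regions formed no run above 2. The distance to the nearest common region was much alike in the classes, with medians of 33.1 kb for gained, 36.2 kb for lost and 31.7 kb for common regions themselves.

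Genes of the pathway were placed on cytogenetic bands, since band names carry over between builds while coordinates do not. A band holds many genes and regions, and a count for a band says nothing of a single gene. The 75 genes of 9 lists lay on 67 bands with 5993 regions, of which 7.12% were gained and 0.868% lost, near the 6.81% and 0.892% of all regions. By list, the gained share ran from 5.54% (repressive chromatin, such as SETDB1, a histone H3K9 methyltransferase, and EZH2, the H3K27 methyltransferase) to 9% (immediate-early AP-1 genes). On the AP-1 bands 61 of 678 regions were gained and 1 was lost (0.147%), with JUN's band 1p32.1 at 10 of 64 (15.6%), FOS's band 14q24.3 at 14 of 177 and ATF3's band 1q32.3 at 8 of 82. In equal lists these 3 bands had 4, 3 and 5 gained and 1, 0 and 1 lost regions.

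Among the feedback inhibitors, the band of SPRY2, a Sprouty inhibitor of receptor tyrosine kinase signalling, had the highest gained share of all bands of the lists: 10 of 55 regions at 13q31.1 (18.2%), none lost, in the band of the window above. The band of SPRED1, a related inhibitor of RAS and RAF signalling, had 11 gained of 71 regions at 15q14 (15.5%). The bands of DUSP6 and DUSP4, phosphatases that switch off MAP kinases, had 3 of 41 (7.32%) and 7 of 79 (8.86%). SPRED2's band had 10 gained of 121. The bands of SPRY1, SPRY4 and DUSP5 had 5 of 81, 9 of 173 and 4 of 83, lower shares than the 6.81% of all regions. Over the whole list of feedback and MAPK outputs, 96 of 1413 regions (6.79%) were gained, much the same share as among all regions. ETV1, an ETS factor, and PHLDA1, an EGFR-responsive gene, sat on bands with no gained and no lost region (33 and 45 regions) in whole lists. EGFR's own band 7p11.2 had 5 gained and 1 lost of 81 regions in whole lists, and 1 gained and 2 lost in equal lists, the opposite lean. Of the ligands, EREG and AREG share band 4q13.3, with 2 gained and 1 lost of 62, and none gained and 1 lost in equal lists. In equal lists SPRY2's band kept 7 gained against 1 lost and SPRED1's band 4 against none.

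For the receptors that can bypass EGFR, MET's band 7q31.2 had 3 gained and 2 lost of 53 regions and AXL's band 19q13.2 had 13 gained and 1 lost of 174. In equal lists these were 1 gained and 2 lost for MET's band, which turned, and 6 and 3 for AXL's. Bands of the ALDH genes had a gained share of 6%, from none of 19 regions at ALDH2's 12q24.12 to 8 of 69 at ALDH1A2's 15q21.3 (11.6%). ALDH7A1's band 5q23.2 was the band of the lists with the highest lost share, 5 of 108 regions (4.63%) beside 7 gained, with 6 lost and 1 gained in equal lists. Bands of apoptosis regulators had 8.26% gained, with BMF, which promotes apoptosis, at 13 of 105 regions on 15q15.1 (12.4%) and BCL2L11 (BIM, an apoptosis activator) at 10 gained and 2 lost of 120 on 2q13. In equal lists BMF's band had 5 gained and none lost, and BCL2L11's band 2 gained and 5 lost, so the direction at 2q13 turned with list length. Bands of genes marking other cell types, such as VIM, PTPRC and COL1A1, had 5.94% gained and 0.228% lost.

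Among the 16007 regions that all 6 libraries held, ranks by score differed between the groups in both directions. Each region was ranked within the common regions of its own library, from 0 to 100. Such ranks have the same mean in every library, so rises and falls balance by construction. A lower rank need not be a lower score. If the labels were exchangeable, a region would separate fully, in either direction, with a probability of 0.1. In 2165 regions (13.5%) all 3 erlotinib ranks lay above all 3 DMSO ranks, and in 2253 (14.1%) all lay below. At 19p13.2 (chr19:9142354-9143911) the ranks were 98.3, 97.8 and 96.8 under erlotinib and 26.4, 11.1 and 5.12 under DMSO, and at 7p14.2 (chr7:36148200-36149771) 99, 98.1 and 94.1 and 23.8, 6.53 and 29.3. At 9q21.13 (chr9:74929732-74931504) they were 80.3, 82.4 and 82.2 and 4.29, 4.42 and 6.16. These regions were called in vehicle cells too, at ranks below 30 there and above 80 under erlotinib.

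Other regions differed as much in the opposite direction. At 8q22.1 (chr8:98930172-98931468) the ranks were 3.14, 7.96 and 0.647 under erlotinib and 93.8, 94.9 and 91.1 under DMSO. At 3p14.3 (chr3:58191814-58193242) they were 3, 5.53 and 10.1 and 90.3, 88.9 and 83.4, and at 3q22.2 (chr3:134145646-134147105) 18.4, 12.2 and 19.7 and 97.4, 94.2 and 96.6. The region at 3p14.3 was also lower in ALDH-high cells after erlotinib (by -69.9 points) and in persisters than in PC9 (by -75.7 points). The region at 8q22.1 was lower in ALDH-high cells (by -78.8 points) and overlapped between DTP and PC9 libraries (-5.56 points).

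**Figure D5:**
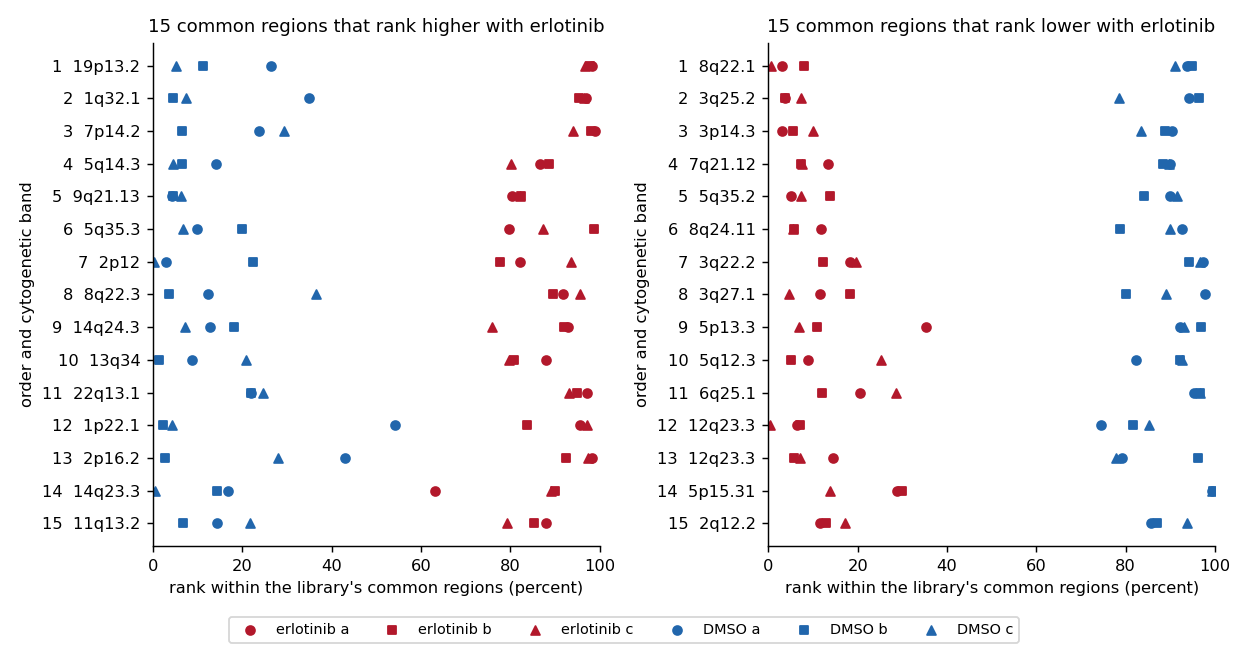
Rank of each region within the 16007 common regions of its library (0 weakest, 100 strongest) for the 15 regions whose mean rank was most above (left) and most below (right) the DMSO mean under erlotinib, with 3 erlotinib (red) and 3 DMSO libraries (blue). The 30 regions were picked for this difference among regions without overlap between the groups. That choice favours a wide gap and a narrow spread within each colour, so both are descriptions only.

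Both sets went the same way in the libraries outside the comparison more often than common regions at large. Of the 1988 higher-ranked regions that all 6 ALDH-high libraries held, 699 (35.2%) ranked higher with erlotinib there without overlap, against 11.7% of the 14679 common regions, and 36 (1.81%) ranked lower. Of 2108 lower-ranked regions, 816 (38.7%) ranked lower in ALDH-high cells, against 12.3%, and 37 ranked higher. In DTP against PC9 libraries, 581 of 2044 higher-ranked regions (28.4%) ranked higher, against 18.4% of 14989 regions, and 188 (9.20%) ranked lower. Of 2115 lower-ranked ones, 853 (40.3%) ranked lower, against 17.7%, and 159 (7.52%) ranked higher.

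The 2 reordered sets were placed differently on the genome. Of the higher-ranked regions, 13.0% lay in Giemsa-dark bands and 5.87% on chromosome 19, and of the lower-ranked regions 22.3% and 1.73%, beside 16.9% and 3.94% of all common regions. Lost regions lay on the same side of the common regions as the lower-ranked ones in both measures, and gained regions (18.5% and 3.34%) did not lie on the side of the higher-ranked ones. The median gene density of their bands was 8.53 and 5.87 protein-coding genes per Mb. Median widths were 1568 and 1454 bp.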

How the data were processed

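The authors deposited 1 list of peaks per library, each peak with a position and a score from the peak caller; the scale of this deposited score is not stated. Per the submitters' processing notes, BWA, MACS 1.4.2 and the hg19 build were used. The sources used here do not give trimming, duplicate removal, transposase shift or calling settings. No peak passed the end of an hg19 chromosome. Lists were read as deposited, without read counts, so depth could not be set equal; lists of equal size and a score floor were used instead. Groups came from the sample labels. Peaks were merged with Python 3.11.15 and pandas 2.3.3, and the merge was checked against bedtools 2.31.1 and tested on simulated data. Exact permutation tests (two-sided) compared values per library; single regions were not tested. Bands of hg19 came from circlize 0.4.16, and genes were placed on bands through RefSeq's GRCh38 table. Named regions were those with the highest percentile in their weakest library (20 gained, 20 lost) and the 5 widest and 3 lowest of each kind. Named common regions were the 15 moving most in each direction without overlap between the groups. Members and lists were chosen with earlier results of these data known.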

Additional observations from a re-analysis of the deposited data

How the results depend on the processing

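Lists of equal size changed the counts most: gained regions went from 3620 to 1430, lost regions from 474 to 1169, and the gained share from 88.4% to 55.0%. With a score of at least 100 the gained share was 90.8%, and 1684 of the 3620 gained and 171 of the 474 lost regions were members in both settings. Leaving out 1 library at a time gave 4277 to 6035 gained regions, 561 to 824 lost regions and gained shares of 84.6 to 91.5%. A rule over 2 libraries is easier to meet than over 3. Without erlotinib library c there were 6035 gained regions; lost regions moved by over 1.5 times without erlotinib library a (777) or DMSO library a (769), b (824) or c (809). At 50% cover, with all sequences, with regions merged over 18 libraries or with no opposite peak within 1000 bp, counts stayed within 1.5 times. The differences in peak number, covered bases and shares held in other libraries kept their direction under each alternative run. With the replicate block the peak difference was 10227 with an exact p of 0.25, the smallest possible; same-letter libraries did not deviate together (correlations of 0.006, 0.007 and -0.001), so letters were not taken as pairs. Depth is unknown, so a missing call does not show closed chromatin.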
